A study of Homo sapiens with 38 samples.

Results

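The step from day 6 to day 8 of differentiation in N2B27 was examined with 4 of the 38 RNA libraries of the study, 2 collected at day 6 and 2 at day 8, all those labelled as N2B27 on Geltrex on these days. The cells were Shef6, a human embryonic stem cell line. Naive Shef6 cells adapted to a serum coating were dissociated and seeded on Geltrex, a basement membrane extract, in N2B27, a serum-free basal medium with no added growth factor or inhibitor, with a ROCK inhibitor on day 0 only. Libraries of the same experiment, Ex1, served for comparison. Cells were moved in the same way into the commercial media E8 and mTeSR, which contain FGF and Activin A or related signals. These were compared at days 6 and 8, and N2B27 also at day 4. Naive cells on Geltrex at day 0 were a further reference. They were kept in PXGL, a medium with LIF and inhibitors of MEK, tankyrase and PKC. The statistical fit held all 38 libraries, those of a second experiment, Ex2, included. Ex2 held naive cells and day 4 of N2B27 alone, with the tankyrase inhibitor XAV, or with XAV, FGF and Activin A. All come from 1 cell line, and the 2 libraries of a group are replicates within 1 experiment, so that p-values measure only the spread between such libraries, which may be technical.

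Capacitation is the passage of naive pluripotent cells, which resemble the epiblast of the blastocyst, to a later state that can respond to signals for germ layers. Pluripotent cells that leave this state under Nodal, WNT and BMP signals first express genes of the primitive streak, the region of the embryo where mesoderm and definitive endoderm arise. SOX17, FOXA2 and GATA factors then mark endoderm, while CDX2 and HOX genes mark posterior cells. Several of these factors also mark the extraembryonic endoderm, the trophectoderm or the amnion, so that a single gene does not name a cell type.

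Total counts were 4659588 and 4751240 at day 6 and 4383985 and 5215461 at day 8. The share of mitochondrial counts was between 2.36% and 2.63%, and each of the 4 libraries was most similar to its own replicate among the 38 libraries. Levels are given as CPM, the share of a gene in the counts of its library after TMM scaling, in the order replicate 1 and replicate 2. A gene was called when the edgeR quasi-likelihood test gave a Benjamini-Hochberg adjusted p-value under 0.05 and an absolute log2 fold change above 1. Of 16674 genes tested, 239 were called (1.43%), 195 higher at day 8 (1.17%) and 44 lower (0.264%). With no limit on fold, 597 passed (3.58%). The libraries of both days did not overlap for any of these 239 genes, but both day 8 libraries were also above both day 6 libraries for 22.4% of all genes tested. DESeq2, given 42688 genes with no prior filter on low counts, called 140 genes, 118 higher and 22 lower. Its counts here and below thus change the filter as well as the test. Leaving out day 6 replicate 2 left 119 calls, leaving out day 8 replicate 1 left 120, and leaving out day 6 replicate 1 left 156.

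**Figure D1:**
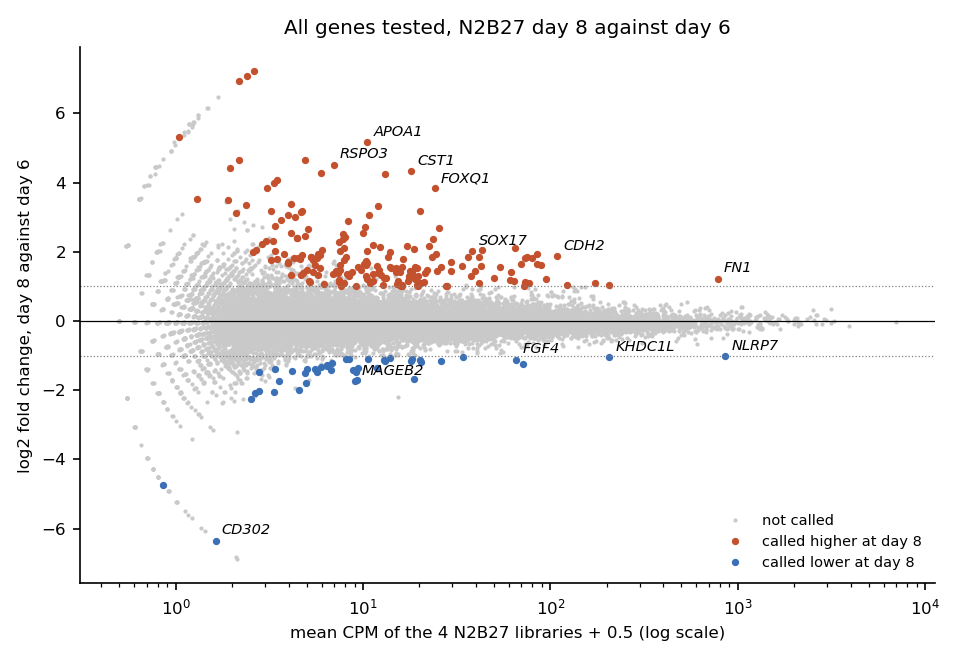
Log2 fold change from day 6 to day 8 in N2B27 (vertical axis) against the mean CPM of the 4 libraries plus 0.5 (horizontal log axis), 1 point per gene tested. Genes called higher (195) lie above the upper dotted line at a log2 fold change of 1, and those called lower (44) below the lower one.

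Most of the genes that rose were low at day 6. Their median level was 4.62 CPM at day 6 and 15.99 CPM at day 8, and 18 of the 195 were at or under the floor of 3 counts in both day 6 libraries. At day 8, 127 of them had a mean of at least 10 CPM and 15 a mean of at least 100 CPM. The mean had also risen from day 4 to day 6 for 149 of the 195. Day 8 replicate 1 was above replicate 2 for 141 of the 195. In 17 of them the naive cells on Geltrex had a higher mean than day 8. In these bulk libraries, more cells of a type and more RNA per cell cannot be told apart.

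Genes of both endoderm lists rose. The definitive endoderm list held 20 genes, of which 5 were under the filter on low counts. Of the 15 tested, 11 rose and none fell, with a median log2 fold change of 1.47 against -0.02 over all genes tested. A gene can pass this filter on its day 8 counts alone, so that such shares and medians can lean towards rises. The lists were also chosen with earlier results of these data known. The summed level of the 15 genes was 169 and 189 CPM at day 6 and 462 and 385 CPM at day 8. DESeq2 called 5 of these genes, and 7 were called without day 6 replicate 1 or without day 8 replicate 1. Of 13 tested genes of primitive endoderm, the extraembryonic endoderm of the blastocyst, 7 rose and none fell, while 1 more was under the filter. The 7 were SOX17, FOXA2, GATA4 and GATA6, which are in both lists, and PDGFRA, BMP2 and COL4A1. The median was again 1.47, in both lists the value of the shared gene GATA4. DESeq2 called 6 genes of primitive endoderm, and 6 were called without day 6 replicate 1 or without day 8 replicate 1.

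SOX17, a transcription factor of definitive and extraembryonic endoderm, was at 13.8 and 15.9 CPM at day 6 and at 58.4 and 63.0 CPM at day 8. Both day 8 libraries were far above both day 6 libraries (log2 fold change 2.03 ± 0.23 SE, adjusted p = 9.1e-07, edgeR). FOXA2, a pioneer factor of endoderm and of the node, was at 7.71 and 8.26 CPM and then at 43.6 and 28.2 CPM (2.16 ± 0.31, adjusted p = 3.9e-05). The day 8 replicates of FOXA2 differed more than those of SOX17, but the days did not overlap. GATA6 went from 10.8 and 11.9 CPM to 31.3 and 32.2 CPM, and GATA4 from 5.21 and 7.05 CPM to 19.4 and 14.8 CPM. Both are zinc finger factors of endoderm and heart. CXCR4, the chemokine receptor used to sort definitive endoderm, went from 28.5 and 37.1 CPM to 103 and 74.4 CPM. PRDM1, FLRT3 and HNF4A, the last a factor of liver and gut endoderm, also rose. GATA4, FLRT3 and HNF4A were not called by DESeq2, nor by edgeR without day 6 replicate 1 or without day 8 replicate 1.

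Some genes that rose had few counts at day 6. APOA1, the main protein of high-density lipoprotein, was at 0 and 1.01 CPM at day 6 and at 21.6 and 17.5 CPM at day 8. APOA2, its companion apolipoprotein, went from 0.625 and 0.604 CPM to 7.49 and 5.78 CPM, at least 10.6-fold higher, and was not called without day 6 replicate 1, day 6 replicate 2 or day 8 replicate 1. RSPO3, a secreted amplifier of WNT signals, went from 0.625 and 0.403 CPM to 15.4 and 9.39 CPM, at least 19.8-fold higher. APOA1 and CST2 were not called by DESeq2 (adjusted p = 0.28 and 0.084), while edgeR called them in all other settings. The other 4 tested endoderm genes were not called: CER1, a Nodal and BMP antagonist, had a log2 fold change of 0.86 (adjusted p = 0.099), HHEX 0.46, KIT 0.07 and FOXA3 -0.38.

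**Figure D2:**
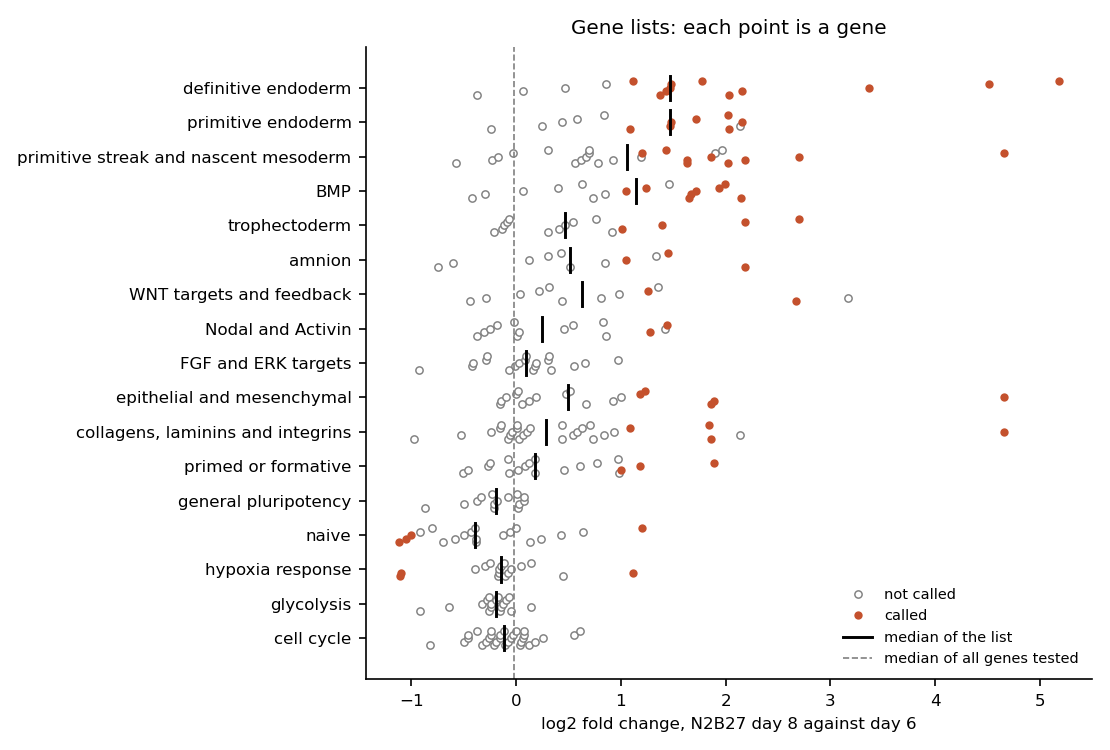
Log2 fold change from day 6 to day 8 in N2B27 for the tested genes of 17 lists, 1 point per gene, filled when called. The black bar is the median of the list and the dashed line the median of all genes tested. The medians of definitive and primitive endoderm are at 1.47, in both lists the value of GATA4, and that of naive genes is at -0.39.

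Of 24 tested genes of the primitive streak and nascent mesoderm, 9 rose and none fell, with a median of 1.06. The genes most often used to define the streak were not among them. TBXT, the T-box factor of streak and notochord, was at 67.5 and 60.9 CPM and then at 65.7 and 60.3 CPM (log2 fold change -0.03, adjusted p = 0.97). MIXL1, a homeobox factor of the streak, had a log2 fold change of 0.31 (adjusted p = 0.41). EOMES, a T-box factor of streak and endoderm, was at 30.4 and 38.3 CPM and then at 74.5 and 56.4 CPM, with an adjusted p of 0.019 but a log2 fold change of 0.93.

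The streak and mesoderm genes that did rise included LHX1, a LIM homeobox factor of the organiser and of mesoderm, from 41.3 and 45.3 CPM to 151 and 118 CPM. CYP26A1, which degrades retinoic acid, rose from 36.3 and 27.8 CPM to 107 and 125 CPM. HAND1, a factor of lateral mesoderm, amnion and trophoblast, rose from 2.29 and 5.44 CPM to 20.3 and 15.4 CPM. PDGFRA, the receptor marking mesoderm and primitive endoderm, rose from 4.17 and 3.63 CPM to 18.1 and 13.9 CPM. SNAI2, a repressor that acts in epithelial to mesenchymal transition, rose at least 13.5-fold from 0.208 and 0.403 CPM. EVX1, APLNR and TBX3 rose as well. Without day 8 replicate 1, EVX1, HAND1 and APLNR were not called and 6 genes of the list were.

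CDX2, a homeobox factor of posterior embryo and trophectoderm, stood at 3.75 and 1.41 CPM at day 6 and at 20.9 and 13.0 CPM at day 8. The HOX list held 18 genes, of which 6 were tested and none was called in the fit of all libraries, by DESeq2 or without any 1 of the 4 libraries, while 4 had an unadjusted p under 0.05. Only the fits with no filter and with just the compared libraries made calls in it, 1 and 3 higher. All 39 HOX genes in the table were then listed, a family chosen after its values were seen. Of 16 that passed the filter on low counts, 4 rose and none fell: HOXA9, HOXA10, HOXA13 and HOXC6. HOXA13 went from 1.04 and 0.403 CPM to 5.73 and 4.34 CPM, and HOXC6 from 1.25 and 3.02 CPM to 10.6 and 7.41 CPM. HOXA9 shared 42.5% of the 50-base windows at its 3′ end with other genes of the annotation, so that its count is uncertain. The other 23 HOX genes were under the filter. DESeq2 called none of the HOX genes (edgeR without day 6 replicate 1, day 6 replicate 2 or day 8 replicate 1 also called none), and 3 of them were called without day 8 replicate 2.

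Among 16 tested genes of the BMP pathway, 8 rose and none fell, with a median of 1.14. Of the ligands, BMP2 went from 11.7 and 15.1 CPM to 48.9 and 39.6 CPM and BMP4 from 77.7 and 81.0 CPM to 172 and 156 CPM. BMP7 had a log2 fold change of -0.42 (adjusted p = 0.25). NOG, a secreted antagonist, went from 4.38 and 4.23 CPM to 23.8 and 14.8 CPM. Of the target genes, ID2 rose from 41.7 and 39.1 CPM to 150 and 104 CPM, and MSX1, MSX2 and ID4 rose too. BMP4 was not called without day 8 replicate 1. ID1, ID3 and BAMBI had adjusted p-values of 0.00058, 0.0068 and 0.0011 with log2 fold changes of 0.73, 0.63 and 0.84, under the limit on fold.

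Of 12 tested WNT targets, LGR5, a receptor for R-spondins, and FZD7, a WNT receptor, rose. The count for this list was 4 with RLE scaling, with the filter of the study or with just the compared libraries, and 1 without day 6 replicate 1, day 6 replicate 2 or day 8 replicate 1. AXIN2, a common feedback target, had a log2 fold change of 0.32 (adjusted p = 0.45). Of 14 tested Nodal and Activin genes 2 rose, 1 of them FST, an Activin-binding protein, while NODAL itself had a log2 fold change of -0.02. LGR5 was not called without any 1 of the 4 libraries. In a family of secreted and surface WNT modulators chosen after values were seen, 6 of 18 tested genes rose, among them SFRP1, a WNT-binding protein, from 17.1 and 15.7 CPM to 74.9 and 62.1 CPM. DESeq2, run with no filter, called 2 of 25 genes of this family, and edgeR called fewer than 6 without any 1 of the 4 libraries. None of 19 tested FGF and ERK targets was called in the fit of all libraries and 9 had an unadjusted p under 0.05. DESeq2 called 1, as did edgeR with RLE scaling, without day 6 replicate 1 or without day 8 replicate 2.

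Matrix and adhesion genes rose in part. FN1, the gene of fibronectin, had the largest rise in CPM of all genes called, from 470 and 464 CPM to 1164 and 1024 CPM (log2 fold change 1.23 ± 0.19, adjusted p = 0.00011). CDH2, the gene of N-cadherin, rose from 43.6 and 48.0 CPM to 192 and 146 CPM, while CDH1 and EPCAM, genes of epithelial adhesion, had log2 fold changes of 0.12 and -0.0013. Of 18 epithelial and mesenchymal genes 5 rose, and of 28 collagens, laminins and integrins 4 rose: COL3A1, COL4A1, COL5A1 and COL5A2. COL3A1 was not called without any 1 of the 4 libraries. COL1A1 and COL1A2 had log2 fold changes of -0.06 and -0.04. In a further family of matrix genes chosen after values were seen, 9 of 22 rose, among them P3H2, a collagen prolyl hydroxylase, from 33.3 and 30.8 CPM to 125 and 101 CPM.

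None of 14 general pluripotency genes was called in the fit of all libraries or by DESeq2, and edgeR without day 6 replicate 1 called 1 lower. An unadjusted p under 0.05 was found for 6, all of them lower. UTF1, a chromatin-associated factor of pluripotent cells, had the lowest log2 fold change, -0.87 (adjusted p = 0.0035), and NANOG (log2 fold change -0.38) and DNMT3B (-0.50) had adjusted p-values of 0.038 and 0.0025. Of 20 naive genes, NLRP7, KHDC1L and FGF4 fell and TBX3 rose, and the median log2 fold change was -0.39. An unadjusted p under 0.05 was found for 10 lower and 2 higher naive genes, and 6 were lower at an adjusted p under 0.05 with no limit on fold. Their summed level was 2941 and 2994 CPM at day 6 and 1979 and 2096 CPM at day 8. FGF4, a growth factor of the early epiblast, went from 95.7 and 82.6 CPM to 41.4 and 40.8 CPM. NLRP7, a maternal-effect gene, went from 1140 and 1138 CPM to 537 and 599 CPM; its log2 fold change of -1.003 stood at the limit, and it was not called in 10 of 12 other settings. KHDC1L shared 67.0% of its 3′ windows with other genes. KLF17 and DPPA3, both naive markers, had log2 fold changes of -0.06 and -0.13. Of 19 primed or formative genes, CDH2, VIM and OTX2 rose. Without day 6 replicate 2, 1 of the 19 was called, and 5 were called by DESeq2, with RLE scaling or without day 8 replicate 2.

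Marker lists of other cell types were counted in the same way, and their part in the changes above was not tested. Of 15 trophectoderm genes, GATA3, CDX2, HAND1 and NR2F2 rose. Without day 6 replicate 1 or without day 8 replicate 1, 1 of these 4 was called. KRT18 and TFAP2C had log2 fold changes of -0.07 and -0.13, and KRT7, VGLL1 and TP63 were under the filter. Of 11 amnion genes, HAND1, BMP4 and IGFBP5 rose, IGFBP5 being lost in 7 of 12 other settings, while ISL1 and TFAP2A had log2 fold changes of 0.42 and 0.31 and were not called. Without day 8 replicate 1 no amnion gene was called. Of 12 neural genes, SOX21 rose and ZIC1 fell, neither of them called by DESeq2 or without day 8 replicate 1, and SOX1 and PAX3 were under the filter. Of 7 primordial germ cell genes, SOX17 and PRDM1 rose, while NANOS3 and DDX4 were under the filter. None of 5 blood and endothelium genes and none of 9 heart and muscle genes was called in the fit of all libraries or by DESeq2, and 2 of each list had an unadjusted p under 0.05 (edgeR on only the libraries compared called 1 blood and endothelium gene), with summed levels of 12.5 to 14.4 CPM and 215 to 266 CPM at day 6 and of 21.4 to 21.9 CPM and 279 CPM at day 8. Of 7 fibroblast genes, COL3A1 and COL5A1 rose and DCN and LUM were under the filter, and 1 was called when any 1 of the 4 libraries was left out.

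**Figure D3:**
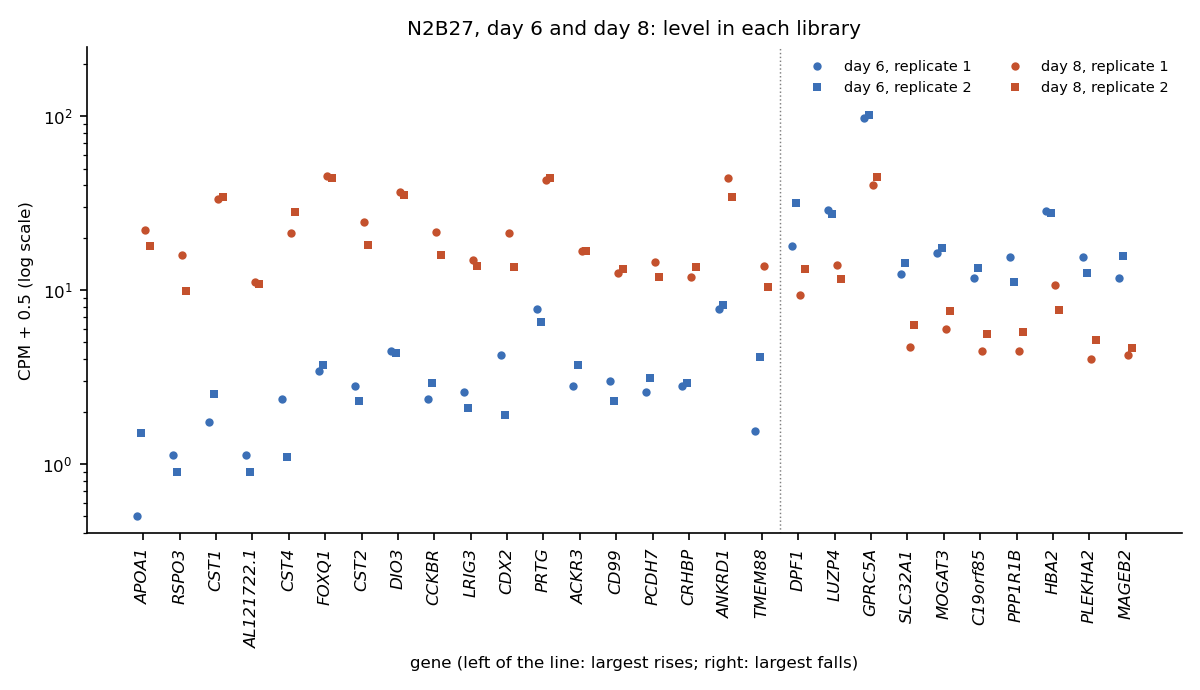
CPM plus 0.5 on a log axis in each of the 4 libraries for the 18 genes with the largest rises and the 10 with the largest falls among genes with at least 10 CPM on the higher side. For all 28 genes both day 8 libraries lie on one side of both day 6 libraries, which the choice of genes required.

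The 18 largest rises by log2 fold change among genes with a mean of at least 10 CPM at day 8 brought in genes outside the lists. Type 2 cystatins, secreted inhibitors of cysteine proteases most of them encoded together on chromosome 20, were among them: CST4 went from 1.88 and 0.604 CPM to 20.7 and 27.5 CPM and CST2 from 2.29 and 1.81 CPM to 24.0 and 17.7 CPM. CST3, the broadly expressed member, rose from 2.29 and 2.22 CPM to 9.03 and 7.23 CPM. Of the 12 genes of this family, grouped after values were seen, 5 passed the filter and 4 rose. CST4 shared 37.4%, CST1 28.6% and CST2 12.1% of their 3′ windows with other genes, so that the split of reads among them is uncertain. PRTG, a cell surface protein of the immunoglobulin family, rose from 7.29 and 6.04 CPM to 42.3 and 43.9 CPM. ACKR3, a scavenger receptor for the ligand of CXCR4, rose from 2.29 and 3.22 CPM to 16.3 CPM in both libraries.

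Promoters of 4 of these genes are shown because they hold motifs of factors named above or a TATA box. RefSeq promoters of GRCh38.p14 run from 250 bases before to 50 bases after the start site, and 61 of the 93 named genes had one. Capitals mark matches on the printed or the opposite strand. The TATA box was searched as TATAAA. The motif of the zinc finger factors GATA4 and GATA6 was searched as AGATAA, and that of forkhead factors such as FOXA2 as TGTTTAC. These 4 were picked after the matches were seen.
DIO3, chr14:101561245-101561544, + strand: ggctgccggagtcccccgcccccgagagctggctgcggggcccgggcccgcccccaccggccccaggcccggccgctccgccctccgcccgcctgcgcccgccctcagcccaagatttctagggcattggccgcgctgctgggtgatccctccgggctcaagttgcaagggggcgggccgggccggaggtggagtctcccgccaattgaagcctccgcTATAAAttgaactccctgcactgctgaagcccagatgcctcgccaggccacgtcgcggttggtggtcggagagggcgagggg
CXCR4, chr2:136118100-136118399, - strand: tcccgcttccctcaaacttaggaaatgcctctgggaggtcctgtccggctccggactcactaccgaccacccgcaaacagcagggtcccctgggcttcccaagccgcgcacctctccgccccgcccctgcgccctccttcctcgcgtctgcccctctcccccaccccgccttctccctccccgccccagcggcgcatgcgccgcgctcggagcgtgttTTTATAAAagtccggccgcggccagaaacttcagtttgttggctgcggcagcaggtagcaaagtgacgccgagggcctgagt
APOA2, chr1:161223579-161223878, - strand: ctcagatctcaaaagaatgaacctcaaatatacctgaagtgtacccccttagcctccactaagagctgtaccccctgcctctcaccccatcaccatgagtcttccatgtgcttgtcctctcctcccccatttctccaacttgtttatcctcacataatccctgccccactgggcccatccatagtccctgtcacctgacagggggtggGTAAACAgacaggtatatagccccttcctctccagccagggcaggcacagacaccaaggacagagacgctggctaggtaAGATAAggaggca
CDX2, chr13:27969266-27969565, - strand: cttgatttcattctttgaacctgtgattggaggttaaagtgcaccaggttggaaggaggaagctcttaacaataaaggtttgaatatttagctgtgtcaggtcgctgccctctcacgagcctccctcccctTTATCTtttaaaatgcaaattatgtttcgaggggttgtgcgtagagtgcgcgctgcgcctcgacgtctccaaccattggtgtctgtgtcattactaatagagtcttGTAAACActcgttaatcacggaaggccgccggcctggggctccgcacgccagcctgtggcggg

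A TATAAA stood at position -32 from the start site in DIO3, the gene of the enzyme that inactivates thyroid hormone, which rose from 3.96 and 3.83 CPM to 36.1 and 34.9 CPM. In CXCR4 it stood at position -30, overlapping a match on the opposite strand at -32. APOA2 held a forkhead match on the opposite strand at -42 and a GATA match at 37, and CDX2 held both on the opposite strand, at -13 and -119. On either strand, TATAAA was found in 17 of the 137 matched promoters of genes that rose (12.4%), in 5.91% of those of genes tested and in 11.95% of all promoters. AGATAA was found in 11.7%, 5.05% and 10.5%, TGTTTAC in 2.92%, 2.26% and 3.41%, and CTTTGAT (TCF and LEF factors) in 0.730%, 1.45% and 2.64%. In the 31 matched promoters of genes that fell, TATAAA was found in 1 (3.23%), AGATAA in 3 (9.68%), TGTTTAC in 2 (6.45%) and CTTTGAT in 1 (3.23%). These shares are descriptions and were not tested.

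The 44 genes that fell had a median of 10.6 CPM at day 6 and of 4.03 CPM at day 8, and in 16 of them the naive cells were above day 6. GPRC5A, a receptor induced by retinoic acid, went from 97.1 and 101 CPM to 39.7 and 44.4 CPM (log2 fold change -1.23 ± 0.12, adjusted p = 1.6e-08). MAGEB2, of the cancer-testis antigens, went from 11.3 and 15.1 CPM to 3.75 and 4.15 CPM and had been at a mean of 41.8 CPM in naive cells on Geltrex. HBA2, an alpha globin, went from 28.1 and 27.2 CPM to 10.1 and 7.23 CPM, but it shared 80.9% of its 3′ windows with other genes. MOGAT3, SLC32A1, LUZP4, PPP1R1B, PLEKHA2, DPF1 and C19orf85 were the other largest falls. DPF1 and PPP1R1B were each lost in 2 leave-one-out fits, both without day 8 replicate 1, and SLC32A1 was lost in 3 other settings, DESeq2 among them. Of 17 hypoxia response genes, PFKFB4 and ANKRD37 fell and ADM rose. PFKFB4 was lost in 8 and ANKRD37 in 3 of 12 other settings, and without day 8 replicate 1 no gene of this list was called. All 8 metallothioneins and 16 of 17 glycolysis genes had a negative log2 fold change, against 8681 of all 16674 genes. None of these was called in the fit of all libraries or by DESeq2, while 8 and 4 had an unadjusted p under 0.05, and 4 and 2 an adjusted p under 0.05. EdgeR called 1 metallothionein lower without day 8 replicate 2 and 1 glycolysis gene lower without day 6 replicate 1.

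None of the tested cell cycle (30), p53 target (15), sterol synthesis (19), Notch (12), ATF4 response (16) and imprinted (18) genes was called in the fit of all libraries. An unadjusted p under 0.05 was found for 8, 4, 1, 2, 7 and 8 of them in this order, and DESeq2 called 1 imprinted gene and none of the others. Most other edgeR settings called 1 to 3 imprinted genes higher. Of 13 YAP and TEAD targets ANKRD1 rose, IHH rose among the Hedgehog genes, and of 11 retinoic acid genes CYP26A1 and MEIS2 rose. MEIS2 was not called without day 6 replicate 1 or without day 8 replicate 1, and 1 retinoic acid gene was called lower without day 6 replicate 1. IHH, a hedgehog ligand, was at 0 CPM in both day 6 libraries and at 5.07 and 2.53 CPM at day 8.

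The same step in the other media was compared by the difference of the steps, tested in the same fit with libraries of its own for each medium. From day 6 to day 8, 134 genes were called in E8 (0.804%), 86 higher (0.516%) and 48 lower (0.288%), and 163 in mTeSR (0.978%), 103 higher (0.618%) and 60 lower (0.36%). Of the 195 genes that rose in N2B27, 17 were also called higher in E8 (8.72% of 195 and 19.8% of the 86 in E8). In mTeSR, 45 were also called higher (23.1% of 195 and 43.7% of the 103 in mTeSR). With no limit on p or fold, 149 of the 195 had a positive log2 fold change in E8 (76.4%) and 166 in mTeSR (85.1%). Among all 16674 genes tested, 8253 were positive in E8 and 8283 in mTeSR. Of the 195, 1 was called lower in E8 and 1 in mTeSR. The step differed between N2B27 and E8 for 18 genes (0.108%), 16 more positive in N2B27 (0.096%) and 2 more negative (0.012%). It differed between N2B27 and mTeSR for 51 genes (0.306%), 35 more positive (0.21%) and 16 more negative (0.096%). Without E8 day 8 replicate 2 the first count was 96, with 40 more positive, and without N2B27 day 8 replicate 1 it was 7. Without mTeSR day 8 replicate 2 the second count was 13.

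The 15 genes called higher in all 3 media included SOX17, FOXA2, BMP2, CDH2, LHX1, CYP26A1, CST4, FZD7, COL5A2 and ERBB4, a receptor of the EGF family, and the 3 called lower were GPRC5A, KHDC1L and MAGEB2. Their levels at day 8 were not alike. SOX17 had a mean of 60.7 CPM in N2B27, 35.5 CPM in mTeSR and 5.52 CPM in E8, and FOXA2 means of 35.9, 21.1 and 2.79 CPM. CDX2 had a mean of 17.0 CPM in N2B27 and of 2.62 and 0.0937 CPM in mTeSR and E8. These differences in level at day 8 were not tested here.

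**Figure D4:**
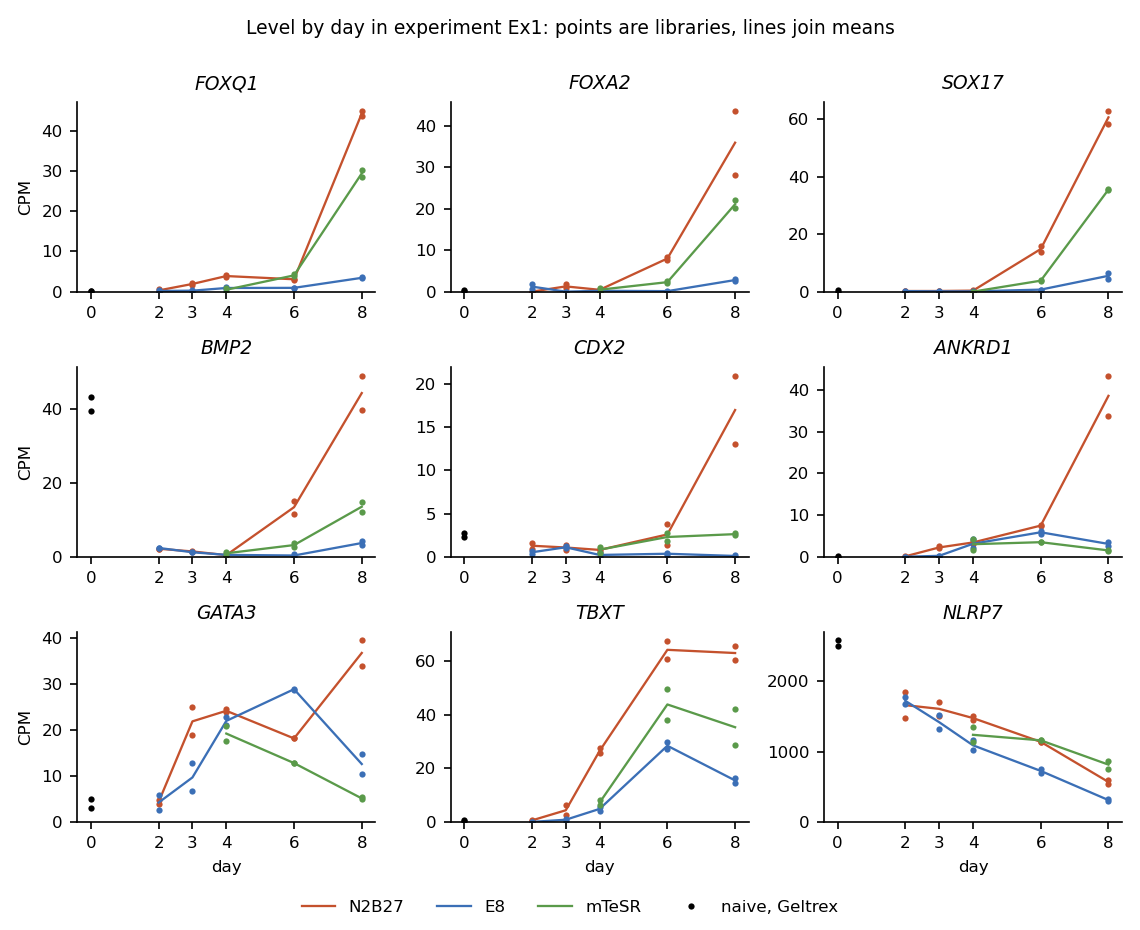
CPM by day in N2B27, E8 and mTeSR of experiment Ex1 for 9 genes, with points for libraries, lines through means and naive cells on Geltrex drawn at day 0. SOX17, FOXA2 and BMP2 rise from day 6 to 8 in all 3 media, TBXT is at 63.0 CPM at day 8 in N2B27 after 64.2 CPM at day 6, and NLRP7 is lower at day 8 than at day 6 in each medium.

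ANKRD1, a muscle ankyrin repeat protein known as a YAP target, showed the largest difference from each medium among the named genes with a called difference. It was at 7.29 and 7.66 CPM at day 6 and at 43.4 and 33.8 CPM at day 8 in N2B27, while its mean went from 5.87 to 3.08 CPM in E8 and from 3.49 to 1.52 CPM in mTeSR. The difference of steps was 3.30 ± 0.48 on the log2 scale against E8 (adjusted p = 0.00085) and 3.55 ± 0.56 against mTeSR (adjusted p = 0.0016). GATA3, a factor of trophectoderm and amnion, went from 18.1 CPM in both libraries to 39.4 and 34.0 CPM in N2B27, with means of 28.8 and 12.6 CPM in E8 and of 12.8 and 5.10 CPM in mTeSR. Its difference was 2.22 against E8 and 2.33 against mTeSR. S100A14, a calcium-binding protein of epithelia, differed by 2.18 and 2.19. DIO3 and ACKR3 differed from E8 by 2.97 and 2.35, and their differences from mTeSR were not called. The difference from E8 was lost in 8 of 15 other settings for ACKR3, the replicate block among them, and in 4 of 15 for DIO3. TBX3, ID2 and BMP4 also differed from E8, by 1.62, 1.37 and 1.07, and ADM and ID2 from mTeSR, by 1.57 and 1.05.

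**Figure D5:**
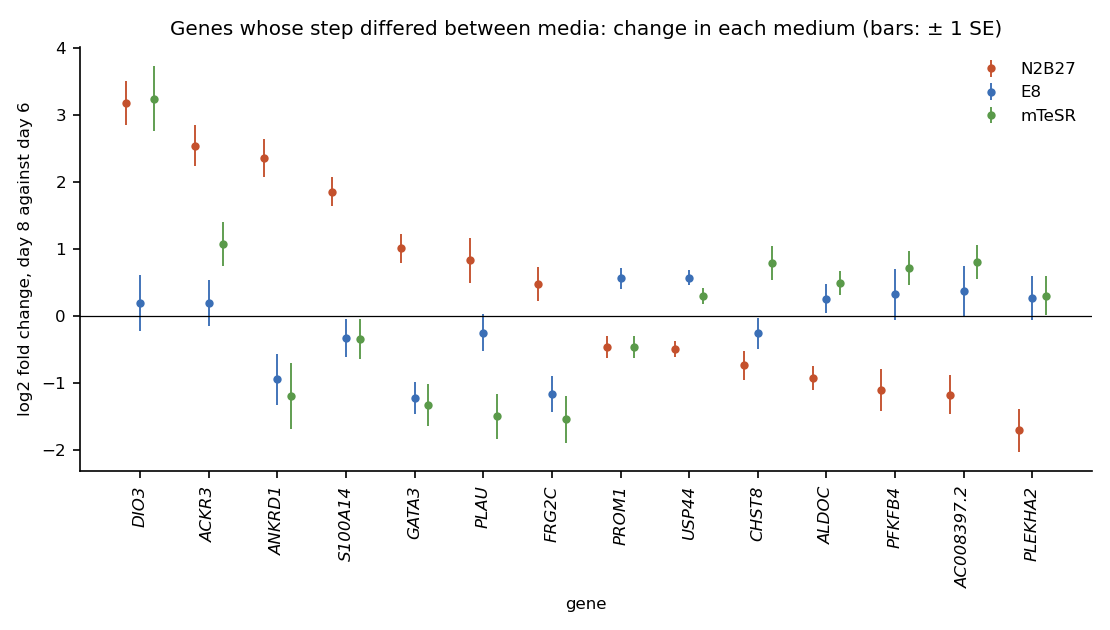
Log2 fold change from day 6 to day 8 with 1 SE in N2B27, E8 and mTeSR for 14 genes, those with the most positive and most negative called differences from E8 or mTeSR among genes whose N2B27 libraries did not overlap between days and had a mean of at least 10 CPM on one day. ANKRD1 and GATA3 lie above 0 in N2B27 and below 0 in E8 and mTeSR.

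Genes whose step was more negative in N2B27 than in mTeSR included PLEKHA2 (difference -2.01), PFKFB4 (-1.82) and ALDOC (-1.41), the last 2 being glycolytic enzymes or regulators. PFKFB4 had means of 25.6 and 42.2 CPM at days 6 and 8 in mTeSR, against 14.0 and 13.7 CPM and then 6.17 and 6.68 CPM in the N2B27 libraries. USP44 and PROM1 were more negative in N2B27 than in E8, by -1.06 and -1.02, and PROM1 was not called in 9 of 16 other settings. The differences from mTeSR of PFKFB4 and PLEKHA2 were lost in 8 and 7 of 16.

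The step was last set against the one before it, from day 4 to day 6, which shares the day 6 libraries. The 2 steps differed for 257 genes (1.54%), 88 more positive (0.528%) and 169 more negative (1.01%) from day 6 to 8. Without day 6 replicate 2, 11 genes differed between the 2 steps. The earlier step itself held 648 calls (3.89%), 513 higher (3.08%) and 135 lower (0.81%). FOXQ1, a forkhead factor, had means of 3.87 CPM at day 4, 3.07 CPM at day 6 and 44.2 CPM at day 8 (difference 4.17). PCDH7, NEDD9 and ACKR3 likewise had day 6 means below those of day 4, and their differences were lost in 5, 4 and 4 of 13 other settings. SOX17 had means of 0.350, 14.8 and 60.7 CPM and BMP2 of 0.439, 13.4 and 44.2 CPM, with fitted differences of -3.26 and -3.12. At day 4 both genes were at or under the floor of 3 counts, so that these differences depend on the prior count and are no bound, and both were lost without day 6 replicate 2. Of AC097375.3, the day 6 libraries were at 0.417 and 8.66 CPM, and its difference of 3.30 fell to 1.49 without the first of them.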

How the data were processed

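RNA of 38 Shef6 libraries was prepared with a QuantSeq 3′ kit, in which reads come from the end of polyadenylated transcripts. The authors deposited estimated counts per gene, already whole numbers and not normalised, made on hg38 with Salmon 1.9.0 and STAR 2.7.10a (versions from the submitters' processing notes) in an nf-core workflow and summed to genes with tximport. The main tests were quasi-likelihood F-tests of edgeR 4.0.16 under R 4.3.3, after filterByExpr and TMM, in 1 fit of 19 groups of 2 libraries, with DESeq2 1.42.0 as an alternative. The fit was tested on simulated data. The use of molecular identifiers is not given in the sources used here, and the floor of 3 counts covers counting error only, and a fold against a group at the floor is a lower bound. SE was derived from the F statistic.

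Named genes were list genes called in the step, the 18 largest rises and 10 largest falls whose higher group had a mean of at least 10 CPM and whose days did not overlap, and the 5 most positive and 5 most negative called for each difference of steps, with these same limits. Counts by list used all tested members. Members and lists were chosen with earlier results of these data known, and 4 families were added after values were seen. Promoters came from RefSeq (GRCh38.p14). Gene positions and the shared 3′ windows, of 50 bases within the last 500 of each transcript, came from GENCODE annotation of GRCh38. The other settings were RLE scaling, library totals, other filters, DESeq2, fewer libraries, a replicate block, no fold limit and leaving out single libraries. Some items are not reported here.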

Additional observations from a re-analysis of the deposited data

Results flagged for a closer look

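The tests of a difference of steps singled out genes whose change from day 6 to day 8 in N2B27 differed from the same change in another medium or from the step before. They called 18 genes against E8, 51 against mTeSR and 257 against the step from day 4 to 6 (edgeR, adjusted p under the threshold and absolute difference above 1 on the log2 scale). Against E8, ANKRD1 differed by 3.30, DIO3 by 2.97, ACKR3 by 2.35, GATA3 by 2.22 and S100A14 by 2.18, while USP44 and PROM1 differed by -1.06 and -1.02. Against mTeSR, ANKRD1 differed by 3.55, GATA3 by 2.33, PLAU by 2.32, S100A14 by 2.19 and FRG2C by 2.02, while PLEKHA2, AC008397.2, PFKFB4, CHST8 and ALDOC differed by -2.01, -1.98, -1.82, -1.52 and -1.41. Against the previous step, FOXQ1 differed by 4.17, AC097375.3 by 3.30, PCDH7 by 2.80, ACKR3 by 2.66 and NEDD9 by 2.24. GATA6-AS1, CER1, COL22A1, SOX17 and BMP2 differed by -7.51, -4.66, -3.37, -3.26 and -3.12. GATA6-AS1 was at 0 in both day 4 libraries, and SOX17, BMP2 and CER1 were at or under the floor of 3 counts there, so that these fitted differences depend on the prior count and are no bound. Without day 6 replicate 2 the differences of SOX17, BMP2, COL22A1 and GATA6-AS1 from the previous step were not called. The difference from mTeSR was lost in 9 of 16 other settings for CHST8, DESeq2 among them, in 5 each for PLAU and FRG2C and in 4 for AC008397.2.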

How the results depend on the processing

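With 2 libraries a group, depth and replicate number limit which low genes can be called, and a fit without 1 library assumes that the lone library of its group varies like the other groups. Of 80 named genes tested in the step, 43 were called in every setting that gave them an adjusted p-value, 37 were lost in at least 1 and none changed sign. Each of these genes had 11 or 12 such settings, and a setting without an adjusted p-value did not count as a loss. Of 27 differences of steps, 10 were called in every setting that gave an adjusted p-value. For the step, 239 genes were called, 195 higher and 44 lower. DESeq2 gave 140, 118 and 22, and adjusted p with no fold limit gave 597. Leaving out single libraries gave 119 to 190 called, 99 to 151 higher and 17 to 39 lower.

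For the difference from the E8 step, 18 genes were called, 16 higher and 2 lower. RLE scaling gave 30, 27 of them higher. No filter on low counts gave 106, 66 higher and 40 lower. A fit of only the libraries compared gave 8 (7 higher and 1 lower). The 30 libraries of Ex1 gave 13 (12 higher and 1 lower), and no fold limit gave 29. Leaving out single libraries gave 7 to 96, 6 to 40 higher and 1 to 56 lower. For the difference from the mTeSR step, 51 were called, 35 higher and 16 lower. No filter gave 111, 78 higher and 33 lower, and a fit of only the libraries compared gave 184 (120 higher and 64 lower). DESeq2 gave 40 (33 higher and 7 lower), and no fold limit gave 86. Leaving out single libraries gave 13 to 45, 9 to 33 higher and 4 to 15 lower. For the difference from the previous step, 257 were called, 88 higher and 169 lower. No filter gave 351 (183 higher and 168 lower), and the 30 libraries of Ex1 gave 155 with 92 lower. A fit of only the libraries compared gave 622 (282 higher and 340 lower), and DESeq2 gave 171 with 80 lower. Leaving out single libraries gave 11 to 213, 4 to 95 higher and 7 to 118 lower. The share of higher calls in the difference from the previous step was 34.2%, 52.1% with no filter, 53.2% with DESeq2 and 45.3% with only the libraries compared. In the difference from E8 it was 88.9%, and 62.3% with no filter, and in that from mTeSR 68.6%, and 82.5% with DESeq2. The causes were not tested.

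The libraries share only a replicate number: the correlation of deviations from the group means between day 6 and day 8 was -0.07. Over all pairs of the groups compared it ran from -0.10 to 0.24, the highest between N2B27 day 6 and E8 day 8, with 0.11 between N2B27 day 8 and mTeSR day 8. With the replicate number as a block within Ex1, 216 genes were called in the step, 10 in the difference from E8 (9 higher, 1 lower), 41 in that from mTeSR and 157 in that from the previous step (91 lower).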

Other observations

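Several of the largest rises in CPM belonged to called genes outside the lists, named here after their values were seen. TMSB4X, an actin-binding peptide, had means of 133 CPM at day 6 and 276 CPM at day 8, but shared 25.3% of its 3′ windows with other genes. RGS5, a regulator of G protein signals known from pericytes, had means of 109.5 and 236 CPM. LIFR, the receptor of LIF, had means of 33.5 and 105 CPM, and MARCKS, a substrate of protein kinase C, of 35.1 and 124 CPM. MARCKS was also called higher in E8 and in mTeSR.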
